A study of Drosophila melanogaster with 8 samples.

Results

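The mitochondrial ribosomal protein genes of Drosophila are those whose symbol begins with mRpL (large subunit) or mRpS (small subunit) and a number, and 69 of them were measured among 11981 named genes. Each was read from a probe set with a single symbol, and where a gene had several, from the one with the highest mean over the 8 arrays. The 69 comprise 44 large subunit and 25 small subunit genes by symbol. RefSeq names 73 such genes. mRpS10 and mRpL53 lay on probe sets with several symbols, mRpL34 and mRpL37 were on no listed probe set, and these 4 were left out.

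Mitochondria carry ribosomes of their own, distinct from those of the cytosol, which translate the few messenger RNAs encoded by mitochondrial DNA into core subunits of the respiratory chain and ATP synthase. The RNA of these ribosomes comes from the mitochondrial genome, whereas their proteins are encoded in the nucleus, made in the cytosol and imported. Many are homologs of bacterial ribosomal proteins, and others have no bacterial counterpart.

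All flies were of Canton-S, a wild-type strain, aged 3 to 5 days, and had spent 4 days at 25 °C under cycles of 12 h light and 12 h dark. The pulsed group received a saturating light pulse of 30 min that began at ZT 15 (zeitgeber time, hours after lights on), 3 h into the night, and was frozen 1 h later at ZT 16.5. The unpulsed control group had no pulse, and its titles give the same time. Total RNA from whole heads was measured on 4 Affymetrix arrays per group as log2 signal, so a value is a mixture over neurons, eye, glia, fat body and muscle, and fewer cells of a type cannot be told apart from less RNA per cell. The labels give neither the sex of the flies nor whether replicates were separate groups of flies, so p-values measure only the spread between these samples.

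The photoreceptor genes trp, inaD, Arr1 and Arr2 had mean signals of 10.8 to 14.8, so genes that define the eye were high in these samples. Pulsed replicate 2 stood apart. The markers of the male reproductive tract (6 of 6) and of the midgut (4 of 4) were above their own means on that array and on no other, with list medians of 4.31 and 4.02 log2 units above them. The yolk protein gene Yp1 was at 11.3 to 12.7 on 5 arrays, pulsed replicates 1 and 2 and unpulsed replicates 2, 3 and 4, and at 4.82 to 5.21 on the other 3. The members' median r, median difference and count on the higher side are given below with and without pulsed replicate 2.

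All 69 genes gave clear signals in the head. Their means over the 8 arrays ran from 6.16 to 11.1 with a median of 7.93, above a dim limit of 2.61 that marks the 40th percentile of all probe sets. Signals of different probe sets are not comparable as amounts of RNA, so the genes are not ranked by level. From the lowest to the highest array, a gene spanned 0.0428 to 0.724 log2 units, with a median span of 0.383.

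The main pattern in these genes was that they went up and down together from array to array, in both groups. The median deviation of the 69 genes from their own means was 0.055, 0.0905, -0.0098 and -0.101 in pulsed replicates 1 to 4. In the same order it was -0.0589, -0.0966, 0.118 and 0.0138 in unpulsed replicates 1 to 4. Each group thus held arrays on which most of these genes were high and arrays on which most were low, and the groups overlapped. On pulsed replicate 2, 58 of the 69 genes were above their own mean, and on unpulsed replicate 3, 50 were, whereas on pulsed replicate 4 only 6 were and on unpulsed replicate 2 only 11. Of the 8386 genes above the dim limit, 3639 were above their own mean on pulsed replicate 2 and 4056 on unpulsed replicate 3. On pulsed replicate 4 this held for 2818 of them and on unpulsed replicate 2 for 3554. The median deviation of these 8386 genes ran from -0.0439 on pulsed replicate 4 to 0.0364 on pulsed replicate 1. The highest value of a member came from unpulsed replicate 3 for 30 members and from pulsed replicate 2 for 20, and never from pulsed replicate 4 or unpulsed replicate 2.

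**Figure D1:**
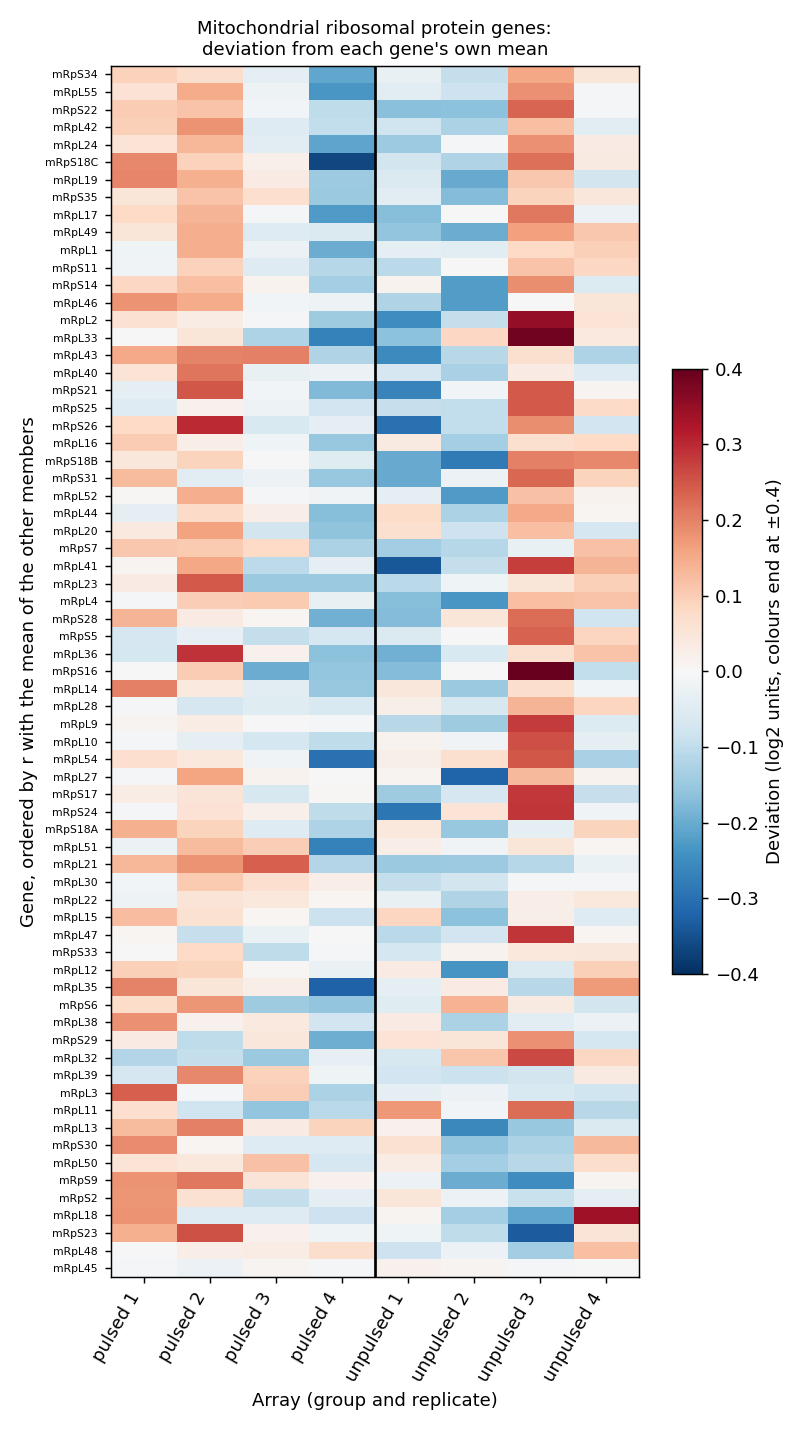
Deviation of each of the 69 genes (rows) from its own mean on each array (columns, 4 pulsed left of the line and 4 unpulsed right of it), in log2 units, with red above and blue below the mean. Rows are ordered by correlation with the other members, and the columns of pulsed replicate 4 and unpulsed replicate 2 are mostly blue while those of pulsed replicate 2 and unpulsed replicate 3 are mostly red.

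Covariation was described by Pearson's r between pairs of genes over the 8 arrays after removal of each group's mean, so that a difference due to the pulse does not enter. The arrays share their scaling, labelling and makeup of tissue, so r is given as a description without a test. The median over the 2346 pairs of members was 0.469, with 83.7% of pairs above 0 and 46.8% at 0.5 or more. Over all pairs of the 8386 genes above the dim limit the median was 0.0465, with 53.5% above 0 and 17.6% at 0.5 or more. Without pulsed replicate 2 these medians were 0.466 for the members and 0.055 for all genes. The first principal component held 54.9% of the members' sum of squares within groups.

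**Figure D2:**
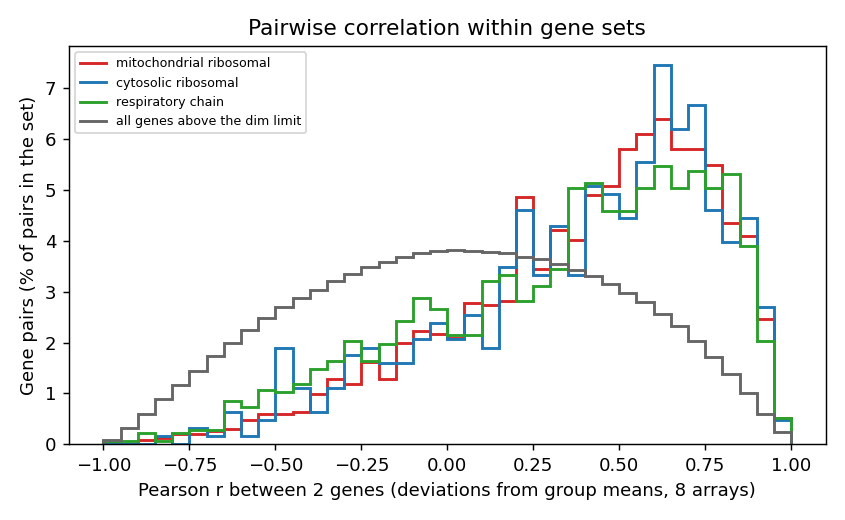
Share of gene pairs (percent of the pairs in each set, vertical) by Pearson's r over 8 arrays with group means removed (horizontal). The mitochondrial ribosomal curve, with a median of 0.469, lies to the right of the curve of all genes above the dim limit, with a median of 0.0465, and close to those of the cytosolic ribosomal (0.461) and respiratory chain genes (0.42).

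Both subunits took part. The median r was 0.451 among large subunit genes, 0.532 among small subunit genes and 0.474 between the subunits, the last lying between the values within the subunits. Among large subunit genes it was 0.435 for the 27 numbered up to 36 and 0.39 for the 17 with higher numbers. Among small subunit genes it was 0.529 for the 13 numbered up to 21 and 0.507 for the 12 with higher numbers. The number is only a rough guide to bacterial homology, which was not checked by sequence.

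The genes that followed the rest most closely were mRpS34 (r = 0.97 with the mean of the other members), mRpL55 (0.95), mRpS22 (0.94) and mRpL42 (0.94), all of them proteins without a bacterial counterpart. Leaving out any array kept r between 0.906 and 0.983 for these 4 genes. mRpS34 was at 7.70, 7.67, 7.57 and 7.40 in pulsed replicates 1 to 4 and at 7.57, 7.51, 7.76 and 7.65 in unpulsed replicates 1 to 4. mRpL55 was at 8.84, 8.93, 8.76 and 8.54 in pulsed heads and at 8.73, 8.70, 8.96 and 8.77 in unpulsed heads, in the same order. Both were lowest on pulsed replicate 4 and highest on unpulsed replicate 3, so each extreme lay in a different group and the groups overlapped. In humans, mutations in the counterparts of mRpS34 and mRpS22 cause mitochondrial disease. mRpS22 ran from 8.54 to 8.94 over the arrays with the same highest array, and mRpL42 from 7.17 to 7.48 with its highest value on pulsed replicate 2.

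Over all members, r with the rest exceeded 0.5 for 51 genes and 0.8 for 21, and was below 0 for 2. The 4 that followed least were mRpL45 (-0.63), mRpL48 (-0.27), mRpS23 (0.025) and mRpL18 (0.11). For mRpS23 and mRpL18 the low r hung on a single array. Without unpulsed replicate 3, on which most members were high, r was 0.91 for mRpS23 and 0.62 for mRpL18. For mRpL48 it stayed low, at 0.16 without unpulsed replicate 3 and -0.84 without unpulsed replicate 4. mRpS23 was at 6.83 on unpulsed replicate 3 and at 7.06 to 7.22 on the other unpulsed arrays. mRpL18, whose bacterial homolog binds 5S ribosomal RNA, was at 7.02 there and at 7.57 on unpulsed replicate 4. mRpL48 was at 7.33, 7.36, 7.37 and 7.41 in pulsed and at 7.25, 7.31, 7.20 and 7.46 in unpulsed heads, so that its lowest value came from unpulsed replicate 3, where most members were high. The pulsed minus unpulsed difference was 0.063 (SE 0.055) for mRpL48 and -0.0038 (SE 0.13) for mRpL18. mRpL45, which in human mitochondria lies near the exit of the peptide tunnel, was at 7.99 to 8.02 in pulsed and 8.01 to 8.03 in unpulsed heads. Its span over the 8 arrays was the smallest of the 69 genes, at 0.0428, so its negative r describes a very small movement.

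Genes of related function were set beside them. The median r was 0.461 among the 36 cytosolic ribosomal protein genes above the dim limit and 0.42 among the 60 respiratory chain and ATP synthase genes above it. Between the members and these lists it was 0.428 and 0.359, both under the 0.469 among the members and above the 0.0465 of all pairs. The size of the movement differed in value, since the list median spanned 0.219 log2 units over the arrays for the members. It spanned 0.0991 for all 41 cytosolic ribosomal genes and 0.129 for all 73 respiratory chain genes. These lists thus include genes under the dim limit, whereas the members do not. The difference in span was not tested. On pulsed replicate 2, 33 of 41 cytosolic ribosomal and 57 of 73 respiratory chain genes were above their own means, as were 58 of the 69 members. Of the genes above the dim limit, 3639 of 8386 were.

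Markers of neurons, leaving aside the photoreceptor genes, moved with this pattern in the opposite direction. All 5 measured markers (elav, nSyb, brp, para, Rdl) were above the dim limit, and their median r with the members was -0.51. The median deviation of the 5 markers was 0.399 and 0.351 on unpulsed replicates 1 and 2, where most members were low, and -0.375 and -0.199 on unpulsed replicates 3 and 4, where most were high. In pulsed replicates 1 to 4 it was 0.0454, -0.113, 0.0619 and 0.0547. The log2 of their summed signal ran from 10.45 to 10.80 in pulsed and from 10.40 to 10.99 in unpulsed heads. On unpulsed replicate 1, 5 of 5 markers were above their means, against 4184 of the 8386 genes above the dim limit. On unpulsed replicate 3, 0 of 5 were, against 4056 of 8386. Fat body and yolk genes (6 of 6 above the dim limit) had a log2 summed signal of 15.22 to 15.46 in pulsed and 14.85 to 15.66 in unpulsed heads. Their median deviation was 0.331, 1.17, -1.25 and -1.30 in pulsed replicates 1 to 4. In unpulsed replicates 1 to 4 it was -1.36, 1.41, 0.658 and 0.619. It lay on the members' side of 0 on all arrays but unpulsed replicate 2. Within that list r with the members was -0.80 for FASN1, -0.60 for Lsp2 and -0.40 for bmm, and 0.58 to 0.65 for the 3 yolk protein genes. Of the muscle markers, up and Mlc2 had an r of -0.75 each and Act88F, TpnC4 and fln of 0.44 to 0.56. TpnC4 and fln stood out on pulsed replicate 2 alone, at 6.41 and 4.50. On the other arrays they were at most 2.65 and 2.91, near the dim limit. Of the glial markers Gs2 was at -0.69, alrm at 0.51 and repo, e and moody between -0.073 and 0.051. Single neuron markers ran from -0.83 for elav to -0.55 for nSyb. Among these 4 lists the neuron markers alone had 1 sign throughout. The photoreceptor genes had the opposite sign throughout, with trp at 0.41, inaD at 0.53, Arr1 at 0.42 and Arr2 at 0.19. The part of any of these cell types in the covariation was not tested.

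**Figure D3:**
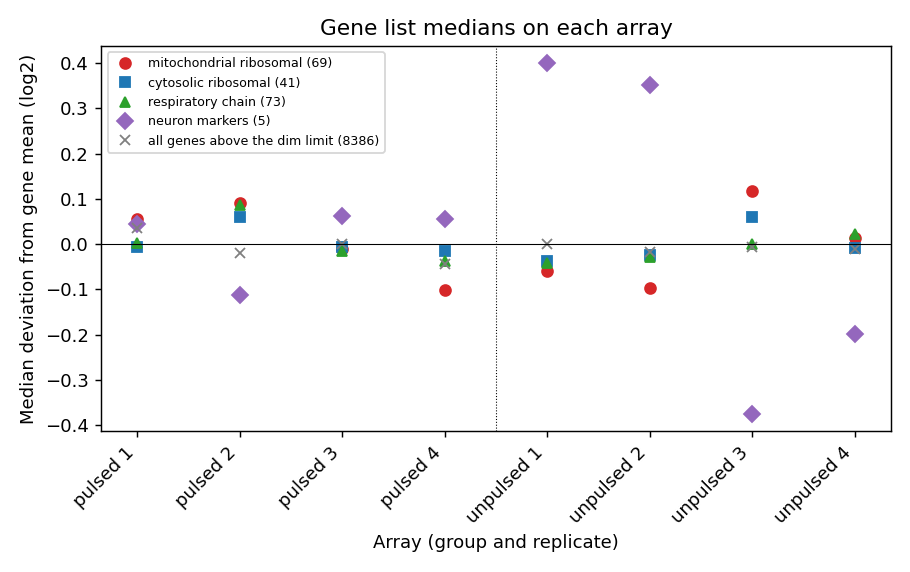
Median deviation from the gene means (log2 units, vertical) of 5 gene lists on each of the 8 arrays (horizontal). The members (red circles) lie between -0.101 and 0.118 with the groups overlapping, and the neuron markers (purple diamonds) lie on the other side of 0 from them on 7 arrays, all but pulsed replicate 1.

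The comparison the study was designed for, pulsed against unpulsed heads, showed no response of these genes that passed the test. With limma, 0 of the 69 passed an adjusted p of 0.05, against 0% of the 18769 probe sets tested, and the smallest adjusted p was 0.854, for mRpL13. The median log2 difference (pulsed minus unpulsed) was 0.012, against -0.0014 over all 11981 genes, and it was -0.0062 without pulsed replicate 2 and -0.0015 with arrays centred on a common median. Of the 69 genes 37 were on the higher side (53.6%, against 46.8% of all genes) and 32 on the lower, and without pulsed replicate 2 these were 34 of 69 members against 57.5% of all genes. With arrays centred on a common median, 34 of the 69 were on the higher side against 35.9% of all genes. The differences ran from -0.20 to 0.23, and 18 of 69 exceeded 0.1 in size. The SE had a median of 0.083, and the 95% interval of the difference lay within 0.5 log2 units of 0 (1.41-fold) for 68 of the 69 genes. The exception was mRpS16, with an interval from -0.51 to 0.25 and a value of 9.23 on unpulsed replicate 3 against 8.50 to 8.80 on the other 7 arrays.

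At an adjusted p of 0.1 the members passing remained 0, against 0.0107% of all probe sets. Before adjustment 5 of 69 members had p under 0.05, against 4.81% of all probe sets and 8.23% of the genes above the dim limit, where all members lie. These were 4 on the higher side (2.4% of all probe sets) and 1 on the lower (2.41%). Pulsed arrays lay wholly above unpulsed ones for 2 members, mRpL13 and mRpS9 (1.3% of all probe sets), and wholly below for 0 (1.26%). With 18769 probe sets tested, none of these 5 is a call. Array weights alone gave calls: 23 members passed, against 15.6% of all probe sets in either direction. The 15.6% includes probe sets under the dim limit, where no member lies. Of these 23 members, 20 were on the higher side, and the same share of all called probe sets is not given here. In that fit 48 of the 69 members were on the higher side, against 68.5% of all genes. There unpulsed replicate 2 had a weight of 10.1 and pulsed replicate 3 of 6.81, and the other 6 arrays at most 1.64.

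**Figure D4:**
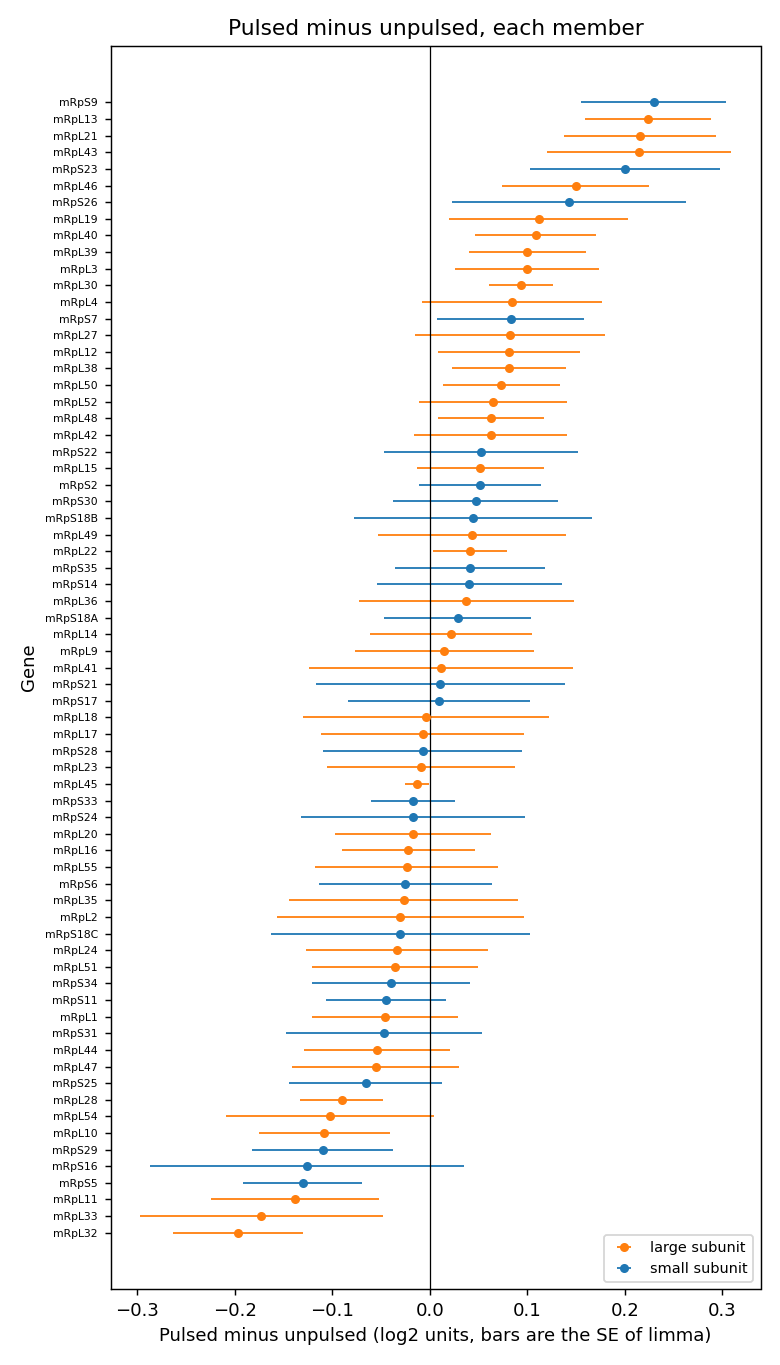
Difference between pulsed and unpulsed heads (log2 units, horizontal; points are the fitted difference and bars its SE from limma, 4 arrays per group) for each of the 69 genes, coloured by subunit. The points run from -0.20 to 0.23, with 5 genes at 0.20 or more and the next at 0.15, and the bar of 43 genes reaches past 0.

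Among large subunit genes, 24 of 44 were on the higher side with a median difference of 0.018, and 0 passed. mRpL13, whose bacterial homolog joins the large subunit early in assembly, had the strongest statistic of the 69. It was at 8.87, 8.94, 8.78 and 8.83 in pulsed replicates 1 to 4 and at 8.76, 8.48, 8.59 and 8.68 in unpulsed replicates 1 to 4. All 4 pulsed arrays were above all 4 unpulsed ones, though pulsed replicate 3 and unpulsed replicate 1 nearly met, and the difference was 0.22 (SE 0.065, limma adjusted p = 0.854). With the 3′ minus 5′ difference of the array controls as a covariate it was 0.082. mRpL32, whose yeast and mouse counterparts are cleaved by a mitochondrial protease before assembly, was at 6.92, 6.94, 6.89 and 7.002 in pulsed and at 6.97, 7.15, 7.30 and 7.12 in unpulsed heads. Its groups overlapped through unpulsed replicate 1, and the difference was -0.20 (SE 0.067, limma adjusted p = 0.965), or -0.022 with that covariate. mRpL30 ran from 9.01 to 9.12 in pulsed and from 8.92 to 9.01 in unpulsed heads, a difference of 0.094 (SE 0.032, limma adjusted p = 0.965), and its groups overlapped narrowly. Its difference with the covariate was 0.093. mRpL21 was at 6.96, 7.003, 7.06 and 6.70 in pulsed and at 6.68, 6.68, 6.71 and 6.80 in unpulsed heads, so that pulsed replicate 4 alone lay among the unpulsed arrays. The difference was 0.22 (SE 0.078, limma adjusted p = 0.965), or 0.077 with the covariate.

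Other large subunit genes with high or low statistics had smaller or more variable differences. mRpL43 was at 0.21 (SE 0.094), mRpL46 at 0.15 (SE 0.075) and mRpL40 at 0.11 (SE 0.062). With the covariate mRpL43 was at 0.23, mRpL46 at 0.071 and mRpL40 at 0.083, and without pulsed replicate 2 mRpL40 was at 0.055. mRpL28 was at -0.090 (SE 0.043), mRpL11, of the factor-binding region in bacteria, at -0.14 (SE 0.086), and mRpL33 at -0.17 (SE 0.12). These 6 had a limma adjusted p of 1.00, and the groups of each overlapped. Without unpulsed replicate 3, mRpL28 was at -0.060, mRpL11 at -0.087 and mRpL33 at -0.073. With the covariate mRpL28 was at -0.091, mRpL11 at -0.088 and mRpL33 at -0.026. The stalk of the large subunit, which recruits translation factors, is built from mRpL10 and mRpL12. mRpL10 was at 8.39 to 8.48 in pulsed and 8.45 to 8.75 in unpulsed heads (difference -0.11, SE 0.067), and mRpL12 at 8.51 to 8.63 and 8.30 to 8.63 (difference 0.081, SE 0.073). With the covariate mRpL10 was at -0.015 and mRpL12 at -0.088. Without unpulsed replicate 3 mRpL10 was at -0.040, and without unpulsed replicate 2 mRpL12 was at 0.017.

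Among small subunit genes, 13 of 25 were on the higher side with a median difference of 0.0095, and 0 passed. mRpS9, whose bacterial homolog reaches the transfer RNA in the peptidyl site, was at 9.71, 9.74, 9.58 and 9.55 in pulsed replicates 1 to 4. In unpulsed replicates 1 to 4 it was at 9.50, 9.33, 9.28 and 9.54. The groups did not overlap but nearly met, and the difference was 0.23 (SE 0.074, 1.17-fold, limma adjusted p = 0.936). With the covariate it was 0.022. mRpS23 had a difference of 0.20 (SE 0.097), with pulsed replicates 3 and 4 at 7.18 and 7.15 among the unpulsed values, and it was at -0.046 with the covariate and 0.12 without unpulsed replicate 3. mRpS5, whose bacterial homolog bears on decoding accuracy, was at 11.03 to 11.09 in pulsed and 11.06 to 11.36 in unpulsed heads, a difference of -0.13 (SE 0.061), or -0.038 with the covariate and -0.074 without unpulsed replicate 3. mRpS29, known in human cells as death-associated protein 3 and able to bind GTP, was at -0.11 (SE 0.072). It was at -0.080 with the covariate, -0.067 without unpulsed replicate 3 and -0.063 without pulsed replicate 4.

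**Figure D5:**
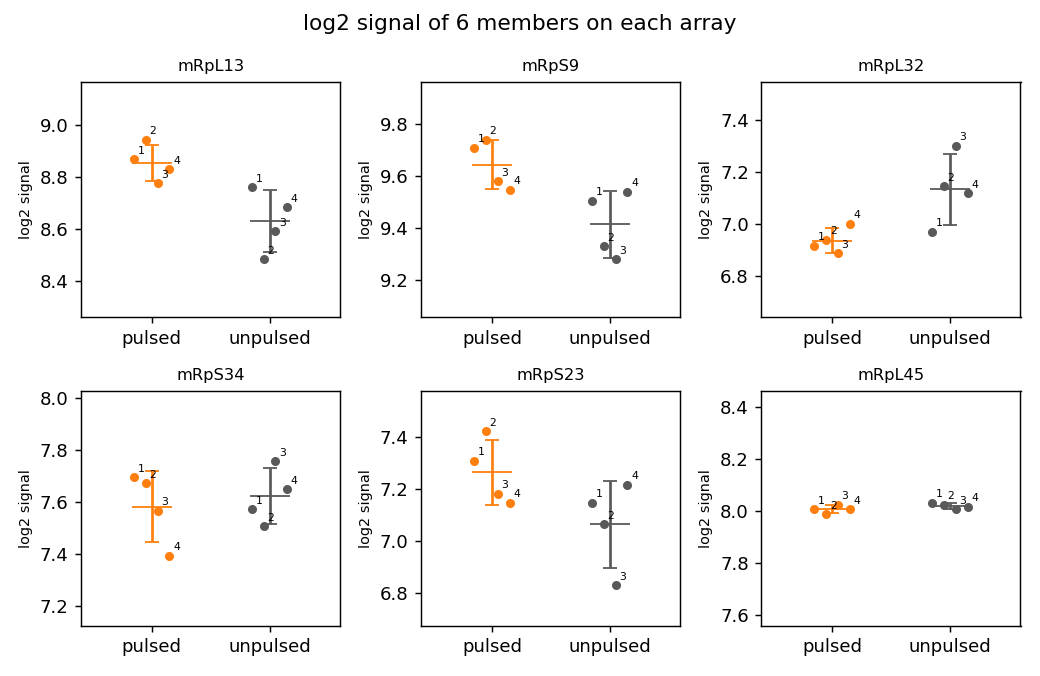
log2 signal (vertical) of 6 members in pulsed and unpulsed heads, with each array as a numbered point and the mean and SD of 4 arrays as bars, on axes of equal height. For mRpL13 and mRpS9 the groups do not overlap, for mRpL32, mRpS34 and mRpS23 they do, and the points of mRpL45 all lie between 7.99 and 8.03.

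The genome holds 3 paralogs of ribosomal protein S18, which in mammals are distributed over both subunits. mRpS18A had a difference of 0.029 (SE 0.075), mRpS18B of 0.045 (SE 0.12) and mRpS18C of -0.030 (SE 0.13). They followed the other members with r of 0.62, 0.79 and 0.92. mRpS18C was low on pulsed replicate 4, at 6.60 against 6.84 to 7.18 on the other 7 arrays. The probe set of mRpS18B is of a type that can share probes between genes. A pair of members had a further probe set: for mRpL47 the differences were -0.055 and -0.029, and for mRpS11 -0.045 and 0.0013, so both probe sets of a gene gave differences near 0.

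A pair of mitochondrial ribosomal proteins carry other symbols. tko encodes protein S12, the site of a classical bang-sensitive mutation of the fly, and bonsai encodes S15. tko was at 8.61, 8.66, 8.42 and 8.38 in pulsed and 8.38, 8.28, 8.45 and 8.51 in unpulsed heads, a difference of 0.11 (SE 0.079), with an r of 0.85 with the members. bonsai had a difference of 0.11 (SE 0.080) and an r of 0.35. With the covariate tko was at 0.0010 and bonsai at -0.12, and without pulsed replicate 2 tko was at 0.065. Neither passed (limma adjusted p = 1.00 each), and the groups of both overlapped.

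Other genes of mitochondrial gene expression were likewise without a call. Of 9 measured translation factors 8 were on the higher side (median 0.056), of 15 mitochondrial aminoacyl-tRNA synthetases 9 were (median 0.024), and of 12 genes of mitochondrial transcription and RNA handling 4 were (median -0.047). In each of the 3 lists 0 passed the adjusted test. The one gene among them at an unadjusted p of 0.05 was PNPase, a nuclease of mitochondrial RNA, at 4.75, 4.84, 4.58 and 4.68 in pulsed and 4.93, 4.91, 4.85 and 4.87 in unpulsed heads. All its pulsed arrays were below the unpulsed ones (1.26% of all probe sets), with a difference of -0.18 (SE 0.055, limma adjusted p = 0.897). Of the genes above the dim limit, where all genes of these 3 lists lie, 8.23% had an unadjusted p under 0.05.

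These lists differed in how far they followed the ribosomal genes. The median r with the members was 0.318 for translation factors, 0.2 for transcription and RNA genes and 0.0804 for the synthetases, the last close to the 0.0465 of all gene pairs. Single translation factors ran from -0.36 for mEFG1 to 0.92 for mEFTs, the nucleotide exchange factor of the elongation factor mEFTu1. Genes of transcription and RNA handling ran from -0.38 for PolrMT to 0.91 for SLIRP2, an RNA-binding protein. The synthetases ran from -0.95 for IleRS-m, with a mean signal of 2.90 near the dim limit, to 0.84 for SerRS-m. mEFTs was at 7.83, 8.004, 7.66 and 7.41 in pulsed and 7.56, 7.60, 7.89 and 7.63 in unpulsed heads, low on pulsed replicate 4 and high on unpulsed replicate 3 and pulsed replicate 2 as the members were. TFAM, which packages mitochondrial DNA, had an r of 0.64. Whether the lists differ in covariation was not tested.

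A measure of RNA quality moved with the groups in part. The 3′ minus 5′ log2 difference of the GAPDH control was 0.805 to 0.928 on pulsed and 0.977 to 1.09 on unpulsed arrays, without overlap. That of actin was 1.00 to 1.34 and 1.21 to 1.58, and that of eIF-4a 2.81 to 3.15 and 3.13 to 3.42, with overlap. Their mean, used as the covariate, was 1.63 to 1.79 on pulsed and 1.77 to 2.01 on unpulsed arrays. The covariate thus moved with the groups in part, so this fit cannot tell RNA quality and the pulse apart. With the covariate the members' median difference was -0.011, and 32 of 69 were on the higher side, against 58.2% of all genes. Of the members 0 had an unadjusted p under 0.05, against 2.6% of all probe sets.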

How the data were processed

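Heads of pulsed and unpulsed flies were measured on 8 Affymetrix arrays, 4 per group, grouped by their titles. Per the labels' protocols, RNA was extracted with Trizol and labelled with an Affymetrix in vitro transcription kit. The table the authors deposited holds log2 signals, and that scale was read from the values themselves. Its summarisation and normalization are not given in the sources used here. Medians by array of 2.95 to 3.07 lie on a common scale, so the values were used as deposited. Their number limits the precision.

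Of 18952 probe sets, 183 controls were left out and 18769 tested. The platform annotation gives 13646 of these 1 symbol, standing for 11981 genes, with symbols updated by gene number through RefSeq (Release 6). The order of protein-coding genes along the chromosomes in RefSeq was used only to find neighbours. Probe sequences and probe coordinates were not used here.

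Pulsed minus unpulsed was fitted with limma 3.58.1 under R 4.3.3 (lmFit, eBayes, two-sided, Benjamini-Hochberg over all probe sets, threshold 0.05). The procedure was run on simulated data with independent noise for each probe set. The added effects were larger than the difference of any member, so the run does not cover differences of the members' size. Correlations, principal components and plots used numpy, pandas and matplotlib. No pair of arrays held identical values (smallest SD of a difference 0.166). Members and lists were chosen with earlier results of these data known. Values are given for the 8 highest and 8 lowest members by statistic, the 4 that correlate best and the 4 that correlate least with the rest, the S18 paralogs, stalk genes, mRpS29, tko, bonsai, and members with 2 probe sets. mRpS16 and genes named from other lists were picked after their values were seen. Members were split at the numbers 36 (mRpL) and 21 (mRpS) as a rough guide to bacterial homology. Homology was not checked by sequence, and the split can be wrong for single genes. Same-numbered arrays of the groups did not deviate together (r of deviations -0.070 to 0.078), so the numbers were not treated as pairs.

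Alternatives were a second round of quantile normalization, arrays centred on their medians, a pseudocount of 16, a filter at the 40th percentile, a trended and robust spread, array weights, a replicate block, covariates (3′ minus 5′ difference, Yp1), averaging the probe sets of each gene, and each array left out.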

Additional observations from a re-analysis of the deposited data

Results flagged for a closer look

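Single arrays stood far from the other 3 of their group for 2 of the 30 genes given with values. mRpL43 was at 7.39 on pulsed replicate 4, against 7.66 to 7.71 on the other pulsed arrays. mRpL18 was at 7.41 on pulsed replicate 1, against 7.15 to 7.18 on the other pulsed arrays. Both groups of each of the 30 genes were looked at, 60 in all, and chance flags about 1 in 20, or 3 of 60.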

How the results depend on the processing

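The count of 0 called members held under every alternative tried except array weights (23). At an adjusted p of 0.1 it was 0, and at an unadjusted p of 0.05 it was 5. The members' median difference ran from -0.014 to 0.082 over 18 alternatives, the highest with array weights, and from -0.014 (without unpulsed replicate 1) to 0.067 (without pulsed replicate 4) with 1 array left out. Members on the higher side ran from 29 (without unpulsed replicate 2, against 41.9% of all genes) to 53 (without pulsed replicate 4, against 45.9%). Under the Yp1 covariate they were 50, against 48.2% of all genes. The median r ran from 0.384 to 0.688 over 15 alternatives, and from 0.384 to 0.524 with 1 array left out. The highest was with the replicate number as a block (0.688). That setting removes replicate means as well as group means, and the median of all gene pairs under it is not given here. The block left 0 members called, a median of 0.012 and 37 on the higher side. No named gene was called except with array weights, where 12 were, against 15.6% of all probe sets.

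The signs of some differences turned, that of mRpS23 (0.20) among them, and the cause was not tested. With array weights mRpL28 was at 0.0071, mRpS34 at 0.050, mRpL55 at 0.045, mRpL18 at 0.099, mRpS18C at 0.11 and mRpL47 at 0.051. With the 3′ minus 5′ covariate mRpS23 was at -0.046, mRpS18A at -0.14, mRpL12 at -0.088, bonsai at -0.12 and mRpL47 at 0.10. With the Yp1 covariate mRpL55 was at 0.014, mRpL18 at 0.0035 and mRpS18C at 0.019, and after quantile normalization mRpL45 was at 0.0028 and mRpL18 at 0.0048. With 1 array left out, differences ran from -0.078 to 0.023 for mRpS34, -0.077 to 0.050 for mRpL55, -0.073 to 0.11 for mRpL18, -0.017 to 0.074 for mRpS18A, -0.042 to 0.12 for mRpS18B, -0.099 to 0.086 for mRpS18C and -0.10 to 0.031 for mRpL47. The number of arrays, 4 per group, limits what can be seen.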

Other observations

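mRpL45 was steadier than nearly every other gene of the head. Its SD within groups was 0.0127 log2 units, and 13 of the 8386 genes above the dim limit had a smaller one. Of the 1244 genes whose mean lay within 0.5 log2 units of its own, 0 had a smaller SD, and their median was 0.137. The gene was noticed for this after its values were seen. Along the chromosomes, 0 of the 146 protein-coding neighbours of the 73 RefSeq mitochondrial ribosomal protein genes was another such gene. A pair of neighbours belonged to the other mitochondrial lists: ArgRS-m, an aminoacyl-tRNA synthetase gene beside mRpS9, and ATPsynD, an ATP synthase gene beside mRpL55.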
